A study of Mus musculus with 6 samples.

Results

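The insulin-like growth factor (IGF) system was followed in whole hearts of mouse embryos at E13.5. Its 10 members were taken by gene name from the 46983 genes of the deposited table: the ligands Igf1 and Igf2, the receptors Igf1r and Igf2r, and the binding proteins Igfbp2 to Igfbp7. All 10 were present in the table, and all 10 were among the 17473 genes with enough counts to be tested. The study asked what is lost when the transcription factor WT1 is removed from the cardiomyocyte lineage, and compared 3 mutant hearts (TnnT2Cre;Wt1flox, replicates 1, 5 and 10) with 3 hearts labelled wild type (replicates 2, 3 and 5), all of the C57BL/6 x DBA/2 strain and each sequenced as a library of its own. Per the study's methods, the controls carried floxed Wt1 alleles without the Cre, so floxed Wt1 was shared by both groups. In the mutants a Cre driven by the Tnnt2 (cardiac troponin T) promoter acts in cardiomyocytes, and per the study it also reaches some epicardial cells.

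IGF1 and IGF2 are secreted growth factors that act through the receptor tyrosine kinase IGF1R and, further downstream, through IRS adaptors, PI3K and AKT. IGF2R binds IGF2 without such signalling and carries it to lysosomes, and the IGF-binding proteins hold the ligands outside the cell and either limit or prolong their action. In the embryonic heart IGF2 from the epicardium and endocardium is known as a growth signal for the compact ventricular wall, and Igf2 and Igf2r are imprinted, with expression mainly from the paternal and the maternal allele respectively.

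Total counts were between 44244665 (wild type replicate 5) and 56373393 (wild type replicate 3). The tissue label fitted its markers, since the 8 cardiomyocyte markers summed to between 18410 and 23710 CPM (counts scaled to a common library size) in each heart. The targeted gene, Wt1, had 40.0, 32.9 and 20.0 CPM in wild type replicates 2, 3 and 5 and 17.7, 33.3 and 35.7 CPM in mutant replicates 1, 5 and 10. These ranges overlapped (log2 fold change −0.10, standard error (SE) 0.31), so the whole-gene level of Wt1 did not check the labels. Some hearts held markers of other tissues: the 8 hepatocyte markers summed to 795 CPM in wild type replicate 3 and to between 3.07 and 22.5 CPM in the other 5, and the erythroid markers were high in wild type replicate 5 and mutant replicate 10 (30810 and 34540 CPM, against 10590 to 13930 CPM). Wild type replicate 5 also stood apart by transcript length. Its median deviation from the mean of the 6 hearts was 0.29 on the log2 scale over the 939 well-measured genes whose longest transcript was under 1500 bp, and −0.49 over the 612 such genes of 8000 bp or more. In bulk RNA, fewer cells of a type and less RNA per cell cannot be told apart.

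The ligand Igf2 was among the most abundant messages of the heart. It ranked between 4 and 7 among all genes by counts in each heart and took between 0.578% and 0.789% of all counts. Levels of different genes are compared here as FPKM (fragments per kilobase of gene length, scaled to the total count), as deposited by the authors. On this scale Igf2 was at 3424 ± 528 (SD, n = 3) in wild type and 3683 ± 107 (SD, n = 3) in mutant hearts. By FPKM it ranked between 12 and 22 among all genes in each heart. Igf2r followed at 650.5 ± 279 and 713.8 ± 85.0, and Igfbp4 at 386.9 ± 21.7 and 410.4 ± 19.4. Igfbp5 came next in this order at 229.1 ± 58.4 and 236.9 ± 29.8, then Igfbp2 at 89.7 ± 11.1 and 76.6 ± 3.31 and Igf1 at 61.2 ± 9.23 and 72.4 ± 9.44 (SD, n = 3 in each group). The lower end of the order was formed by Igfbp3 (26.7 ± 4.75 and 29.2 ± 7.97), Igfbp7 (14.7 ± 1.54 and 12.5 ± 1.14), Igf1r (7.98 ± 2.46 and 9.14 ± 0.522) and Igfbp6 (1.08 ± 0.350 and 0.535 ± 0.0106). The signalling receptor Igf1r was thus near the bottom of the system, and the clearing receptor Igf2r near its top. The order of the group means was the same in mutant and wild type hearts. Most neighbours in the order held it in 6 of 6 hearts, and the exceptions were Igf2r over Igfbp4 and Igfbp2 over Igf1, which held in 5 of 6.

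Part of this order rested on the gene length that was used to make the FPKM. For 66.9% of the 16743 genes with transcripts of more than 1 length, the length behind the deposited values was the mean length of the gene's annotated transcripts to within 1 bp. That mean counts short fragments of a gene model as much as its full transcript. It was 2549 bp for Igf2r, whose longest transcript has 8887 bp, and 1183 bp for Igfbp4, whose longest has 3831 bp. For Igfbp5 it was 5144 bp, close to its longest transcript of 6006 bp.

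Per base of the longest transcript, the wild type means were 1450 for Igf2, 196.2 for Igfbp5, 186.6 for Igf2r, 119.5 for Igfbp4 and 73.3 for Igfbp2 (counts per kilobase, scaled to CPM). Igfbp3 (22.8), Igf1 (17.1), Igfbp7 (14.1), Igf1r (3.14) and Igfbp6 (1.08) followed on the same scale. Igf2 stayed first and Igf1r and Igfbp6 stayed last, while Igfbp5 moved past Igfbp4. Igfbp5 lay above Igf2r in 2 of 6 hearts only, so the order of that pair was not settled.

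**Figure D1:**
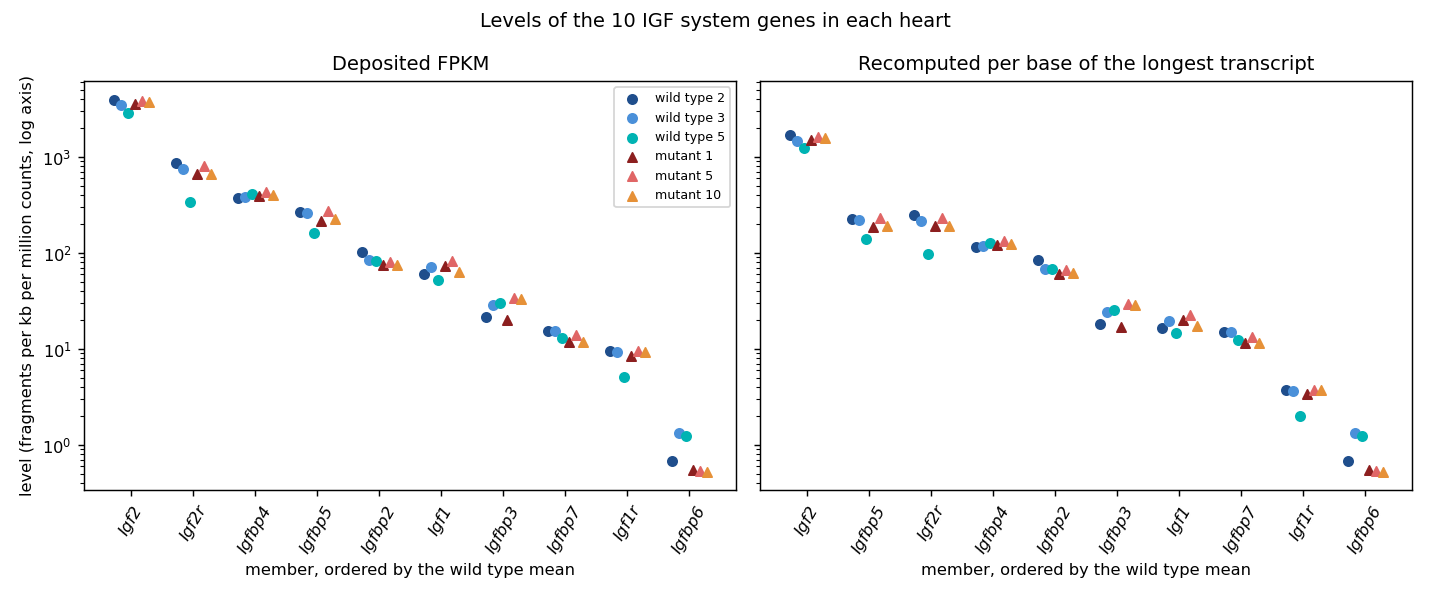
Level of each member in each heart on a log axis, as deposited FPKM (left) and recomputed per kilobase of the longest transcript (right), with wild type hearts as circles and mutant hearts as triangles. Igf2 lies highest on both scales, and Igfbp5, at 229.1 against 386.9 for Igfbp4 in the wild type mean on the left, lies above Igfbp4 on the right (196.2 against 119.5).

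The mixture of binding proteins was dominated by Igfbp4, known to be cut by the protease PAPP-A, and Igfbp5, which binds to extracellular matrix. Of the summed deposited FPKM of the 6 measured Igfbp genes, Igfbp4 made up between 47.6% and 58.7% per heart and Igfbp5 between 23.1% and 34.3%. Per longest transcript the order of the pair was the opposite in each heart, with 24.8% to 34.1% for Igfbp4 and 37.2% to 49.6% for Igfbp5. Igfbp2 gave 9.67% to 13.2% of the deposited sum and the other 3 measured genes each gave less. Wild type replicate 5 had the lowest share of the long Igfbp5 and the highest share of Igfbp4 on both scales.

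In the genome, Igfbp2 (chr1:72824503-72852474, plus strand) and Igfbp5 (chr1:72857932-72874884, minus strand) lie end to end in GRCm38 with 5457 bp between them. Igfbp3 (chr11:7206086-7213923, minus strand) is paired in the same way with Igfbp1, 3539 bp away. Igf2 (chr7:142650766-142666816, minus strand) lies 72622 bp from the imprinted non-coding gene H19, and its exons are shared over 62.8% of their bases with Gm49394, a same-strand gene model of GENCODE M21 that the count table does not list. Annotated exons of a gene on the opposite strand overlapped those of a member at 98 bases of Igf2 (Igf2os) and 85 bases of Igfbp7 (Polr2b). The strand setting of the counting is not given in the sources used here, and reads from outside annotated exons were not examined. Airn, the non-coding RNA that starts inside Igf2r on the other strand, shared 0 annotated exon bases with it.

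WT1 is a zinc-finger protein that binds GC-rich sites, so the 300-base windows around the RefSeq starts (250 bases before to 50 after, GRCm38.p6) were searched on both strands for GCGGGGGCG, the EGR-type site it is known to bind, and for the longer WTE element. All 10 members were matched, with 14 windows. The 9-base site was in 955 of 32851 windows (2.91%) and among the members only in 1 window of Igf2r, while WTE was in 18 windows (0.0548%) and in none of a member. The 250 bases before the start are shown for Igf2r, which holds the site (in capitals), and for Igfbp2 and Igfbp6, the members whose mutant and wild type hearts did not overlap below. Each is read 5′ to 3′ on the strand of the gene, at chr17:12769707-12769956 (minus), chr1:72824230-72824479 (plus) and chr15:102143936-102144185 (plus).
Igf2r: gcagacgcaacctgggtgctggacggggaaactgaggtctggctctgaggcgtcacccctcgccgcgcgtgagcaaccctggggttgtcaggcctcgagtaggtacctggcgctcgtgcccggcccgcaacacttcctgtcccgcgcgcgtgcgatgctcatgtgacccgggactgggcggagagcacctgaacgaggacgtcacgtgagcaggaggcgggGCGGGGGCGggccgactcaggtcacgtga
Igfbp2: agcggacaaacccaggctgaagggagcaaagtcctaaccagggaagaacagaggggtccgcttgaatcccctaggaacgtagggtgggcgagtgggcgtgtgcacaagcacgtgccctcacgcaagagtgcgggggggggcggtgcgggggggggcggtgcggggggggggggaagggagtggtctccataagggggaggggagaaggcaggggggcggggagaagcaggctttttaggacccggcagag
Igfbp6: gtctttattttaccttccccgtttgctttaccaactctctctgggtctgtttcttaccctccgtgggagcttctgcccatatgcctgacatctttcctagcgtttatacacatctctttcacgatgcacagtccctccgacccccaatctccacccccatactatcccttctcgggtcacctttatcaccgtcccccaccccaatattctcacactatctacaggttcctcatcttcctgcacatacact
The windows shown differ in base composition, with 69.2% G and C for Igf2r, 67.2% for Igfbp2 and 49.6% for Igfbp6. A match is a run of letters and not a measured site, and the absence of these letters says nothing of WT1 at the gene.

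The comparison of mutant with wild type hearts asked which members differ in level once Wt1 is deleted in the cardiomyocyte lineage. No member passed the test. In edgeR's quasi-likelihood fit adjusted by Benjamini-Hochberg, 0 of the 10 members had an adjusted p under 0.05, as did 0 of all genes tested (0.0%). DESeq2 also called 0 of the 10, and called 0.69% of all genes it gave an adjusted p. At an unadjusted p under 0.05 edgeR's test had 1 member, Igfbp6, against 5.73% of all genes, and DESeq2 had 1, against 4.32%. Fold changes were above 0 in 7 members and below 0 in 3 (Igfbp2, Igfbp6 and Igfbp7), with a median of 0.13 on the log2 scale, against 0.00 and 49.8% above 0 over all genes tested. That split depended on single hearts: it was 5 and 5 without wild type replicate 5, with a median of −0.05, and 6 and 4 without mutant replicate 5, with a median of 0.05. The groups did not overlap in 2 of 10 members, Igfbp2 and Igfbp6, both lower in the mutant, where 11.2% of all genes did not overlap and 4.59% did so with the mutant lower.

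**Figure D2:**
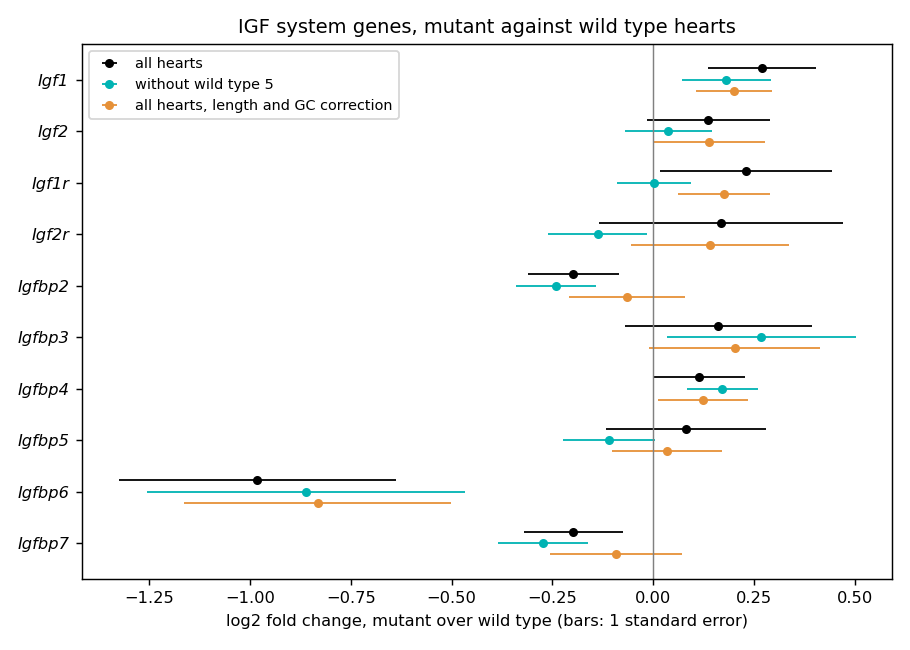
Log2 fold change of each member, mutant over wild type, with bars of 1 standard error, for all 6 hearts, without wild type replicate 5, and with the trend of each heart with transcript length and GC content removed. Igfbp6 lies farthest from 0 (−0.98 with all hearts), and Igf2r (0.17) and Igfbp5 (0.08) change side without wild type replicate 5.

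Of the ligands, Igf1, made mainly by mesenchymal cells, had the larger fold change, at a much lower level than Igf2. In wild type replicates 2, 3 and 5 it was at 116.2, 136.7 and 104.0 CPM, and in mutant replicates 1, 5 and 10 at 140.0, 159.8 and 130.3 CPM. Wild type replicate 3 lay above mutant replicate 10, so the groups overlapped by that pair alone. Igf1 had a log2 fold change of 0.27 (SE 0.13; adjusted p = 0.920 in edgeR's quasi-likelihood fit, adjusted by Benjamini-Hochberg), and leaving out 1 heart at a time gave values from 0.18 to 0.38. It was highest without wild type replicate 3, the heart with the hepatocyte markers, where it passed 0.05 before adjustment and had an adjusted p of 0.943 in the same edgeR fit. Markers of other cells that can make Igf1 were set beside it. The 6 macrophage markers summed to 77.1 to 88.8 CPM in wild type and 116.3 to 130.4 CPM in mutant hearts, with 5 of 6 above 0 in the comparison and Mrc1 at −0.19. The 8 fibroblast and cushion markers summed to 2221 to 3167 CPM and 3184 to 4482 CPM, but only Col1a1 and Col1a2 separated the groups, and Pdgfra (−0.38), Sox9 (−0.20) and Lum (−0.10) lay below 0. The part of these markers in the value of Igf1 was not tested. Igf1os, an antisense gene inside Igf1, had at most 4 counts in any heart and shares no exon base with it.

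Igf2 was at 7778, 6734 and 5812 CPM in wild type replicates 2, 3 and 5 and at 7003, 7520 and 7823 CPM in mutant replicates 1, 5 and 10. The lowest values were in wild type replicates 5 and 3, and the other 4 hearts were mixed. Its log2 fold change of 0.14 (SE 0.15; adjusted p = 0.985 in edgeR's quasi-likelihood fit, adjusted by Benjamini-Hochberg) dropped to 0.04 once wild type replicate 5 was left out, and went to 0.25 without replicate 2. The ratio of Igf2 to Igf1 within a heart, on deposited FPKM, was 65.8, 48.4 and 54.9 in wild type and 49.1, 46.2 and 59.0 in mutant hearts. The difference of its log2 values was −0.13 (exact permutation test, two-sided, p = 0.6, where 3 hearts against 3 allow no p below 0.1). It moved from −0.01 without wild type replicate 2 to −0.23 without wild type replicate 3 or mutant replicate 10.

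The genes that followed Igf2 most closely over the 6 hearts were Ube2h, Tldc1 and Kif1c, with a mean absolute difference of their centred log2 CPM of 0.016, 0.022 and 0.023 among 8826 well-measured genes. H19, its imprinted neighbour, ranked 40 by this measure at 0.038. For Igfbp5 the nearest genes were Gpc4 (0.023), Fgd6 (0.025) and Foxp1 (0.026), and for Igfbp6, at a much larger distance, Lsp1 (0.200), Shox2 (0.200) and Vsnl1 (0.206). These are descriptions over 6 points that share their library depth and the length pattern of wild type replicate 5.

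Igf1r, the signalling receptor, was at 42.0, 40.9 and 23.2 CPM in wild type replicates 2, 3 and 5 and at 37.7, 42.4 and 44.5 CPM in the mutants. Apart from wild type replicate 5 the hearts lay close together and mixed. In the comparison Igf1r gave 0.23 on the log2 scale (SE 0.21; adjusted p = 0.985 in edgeR's quasi-likelihood fit, adjusted by Benjamini-Hochberg) and became 0.00 (SE 0.09) without that heart.

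Igf2r behaved in the same manner and with more spread. It was at 2194, 1851 and 865 CPM in wild type replicates 2, 3 and 5 and at 1651, 2061 and 1803 CPM in mutant replicates 1, 5 and 10. The lowest and the highest heart were both wild type. The log2 fold change of 0.17 (SE 0.30; adjusted p = 0.985 in edgeR's quasi-likelihood fit, adjusted by Benjamini-Hochberg) became −0.14 (SE 0.12) once wild type replicate 5 was left out, and 0.44 without replicate 2. The ratio of Igf2 to Igf2r, on deposited FPKM, was 4.52, 4.64 and 8.56 in wild type and 5.41, 4.65 and 5.53 in mutant hearts, and wild type replicate 5 alone lay above the narrow range of the other 5 hearts. The difference of the log2 ratio was −0.12 (exact permutation test, two-sided, p = 1.0), and that of Igf1r to Igf2r was 0.01 (p = 1.0 from the same exact test). Both signs rested on single hearts, since the former became 0.18 when wild type replicate 5 was left out, and the latter moved between −0.10 (replicate 2 of the wild type left out) and 0.14 (replicate 5 left out).

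In the members with long transcripts, wild type replicate 5 set much of the spread between hearts. Wild type replicate 5 was the lowest heart in 5 of the 10 members, against 31.1% of all genes tested, and these 5 were the members with the longest transcripts. Its deviation from the mean of the 6 hearts, on the log2 scale, was −0.95 in Igf2r (longest transcript 8887 bp), −0.70 in Igf1r (11409 bp), −0.50 in Igfbp5 (6006 bp), −0.32 in Igf1 (7052 bp) and −0.28 in Igf2 (4722 bp). With the trend of each heart over the length of all genes removed, the same deviations were −0.60, −0.28, −0.28, −0.04 and −0.17. Igf1 thus came to lie near the mean, while Igf2r remained well below it. With the length trend alone removed, wild type replicate 5 was the lowest heart in 5 of 10 members. These 5 no longer held Igf1 and now held the short Igfbp7 (1200 bp). With the GC trend removed as well wild type replicate 5 was the lowest in 7 of 10, which included Igf1, Igfbp7 and the short Igfbp2 (1307 bp). The 31.1% over all genes is for values as measured, and the share after these corrections was not computed. The SD over the 6 hearts was 0.49 in Igf2r, 0.35 in Igf1r and 0.10 in Igfbp4, against a median of 0.155 over the well-measured genes. RNA quality by heart was not analysed here.

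**Figure D3:**
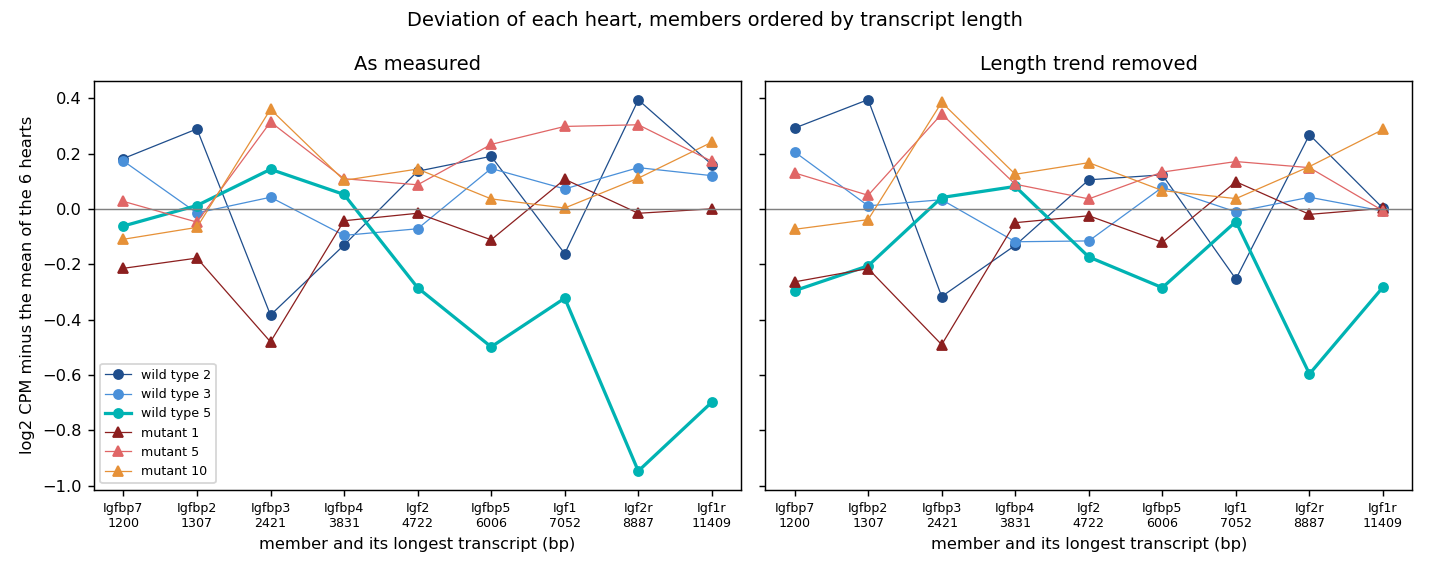
Deviation of each heart from the mean of the 6 hearts in log2 CPM, as measured (left) and with the length trend of each heart removed (right), for 9 members ordered by the length of their longest transcript. Igfbp6 is left out for its low counts. On the left, wild type replicate 5 (thick line) lies below the others in the 5 longest members, to −0.95 in Igf2r, which is −0.60 on the right.

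Among the binding proteins, the 3 with values below 0 were Igfbp6, Igfbp2 and Igfbp7. IGFBP6 binds IGF2 with preference over IGF1. Its gene was at 0.746, 1.44 and 1.39 CPM in wild type replicates 2, 3 and 5 and at 0.596, 0.591 and 0.616 CPM in the mutants. Each mutant heart lay below each wild type heart, but wild type replicate 2 lay closer to the mutants than to the other wild type hearts. The mutant values rest on 31 counts in each heart (exact 95% Poisson interval 21.1 to 44) and the wild type values on 42 (30.3 to 56.8), 83 (66.1 to 102.9) and 61 (46.7 to 78.4). These intervals cover counting error only, and those of wild type replicate 2 and the mutants overlap. Between the groups Igfbp6 differed by −0.98 on the log2 scale (SE 0.34; adjusted p = 0.762 in edgeR's quasi-likelihood fit, adjusted by Benjamini-Hochberg). Before adjustment it passed 0.05, which it did not without wild type replicate 3 or 5 or mutant replicate 1 or 5. Leaving out 1 heart at a time moved it between −1.23 and −0.81, and it was smallest in size without wild type replicate 3, where the hepatocyte markers were high (adjusted p = 0.964 in the same edgeR fit). Without wild type replicate 5, whose hepatocyte markers summed to 18.5 CPM, the value was −0.86. In mutant replicate 1 the hepatocyte markers summed to 22.5 CPM, with Igfbp6 at 0.596 CPM. The part of those markers in the result was not tested.

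Igfbp2, which binds IGF2 and heparin-like matrix sugars, was at 108.0, 87.5 and 89.2 CPM in wild type replicates 2, 3 and 5 and at 78.1, 85.5 and 84.4 CPM in mutant replicates 1, 5 and 10. The groups did not overlap, but wild type replicate 3 and mutant replicate 5 were next to each other. On the log2 scale Igfbp2 differed by −0.20 (SE 0.11; adjusted p = 0.946 in edgeR's quasi-likelihood fit, adjusted by Benjamini-Hochberg). It was −0.09 without wild type replicate 2, and −0.06 with the length and GC trends removed. Its size grew to −0.25 when wild type replicate 3 was dropped, and to −0.24 when replicate 5 was dropped instead. In the latter edgeR fit Igfbp2 passed 0.05 before adjustment (adjusted p = 0.382), as did 2179 of all genes. With both trends removed and replicate 5 dropped, its value was −0.18.

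Igfbp7, a more distant relative with weak IGF binding that is known from vessel walls, was at 17.7, 17.6 and 14.97 CPM in wild type and 13.47, 15.9 and 14.5 CPM in mutant hearts. Wild type replicate 5 and mutant replicate 5 made the groups overlap. Its log2 fold change was also −0.20 (SE 0.12; adjusted p = 0.964 in edgeR's quasi-likelihood fit, adjusted by Benjamini-Hochberg). The value was −0.27 without wild type replicate 5 and −0.09 with the length and GC trends removed. In the edgeR fit without wild type replicate 5 Igfbp7 passed 0.05 before adjustment (adjusted p = 0.375), as did 2179 of all genes. With both trends removed and that heart dropped, its value was −0.24. Of the endothelial markers, all 8 lay above 0, with a median of 0.28 on the log2 scale. Only Emcn separated the groups, and wild type replicate 5 was the lowest heart in each of the others. The part of these markers in the value of Igfbp7 was not tested.

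The other 3 binding proteins lay above 0 with all hearts. Igfbp3, the main carrier of IGFs in blood, was at 43.4, 58.3 and 62.5 CPM in wild type and 40.6, 70.4 and 72.6 CPM in mutant hearts. In each group 1 heart, wild type replicate 2 and mutant replicate 1, was low, and the remaining 4 were high. Its difference of 0.16 on the log2 scale (SE 0.23) ranged from 0.02 without wild type replicate 2 to 0.39 without mutant replicate 1.

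Igfbp4 was the steadiest member, at 430.6, 441.1 and 488.9 CPM in wild type and 457.6, 508.7 and 506.4 CPM in mutant hearts. Its log2 fold change was 0.11 (SE 0.11), with 0.08 to 0.17 when 1 heart at a time was left out. Igfbp5 was at 1349, 1308 and 836 CPM in wild type and 1094, 1389 and 1212 CPM in mutant hearts, with both the lowest heart and the heart next to the highest in the wild type. Its log2 fold change was 0.08 (SE 0.20), and −0.11 without wild type replicate 5. The adjusted p of Igfbp3 and Igfbp4 was 0.985 and that of Igfbp5 0.990 (edgeR's quasi-likelihood test, Benjamini-Hochberg adjustment).

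**Figure D4:**
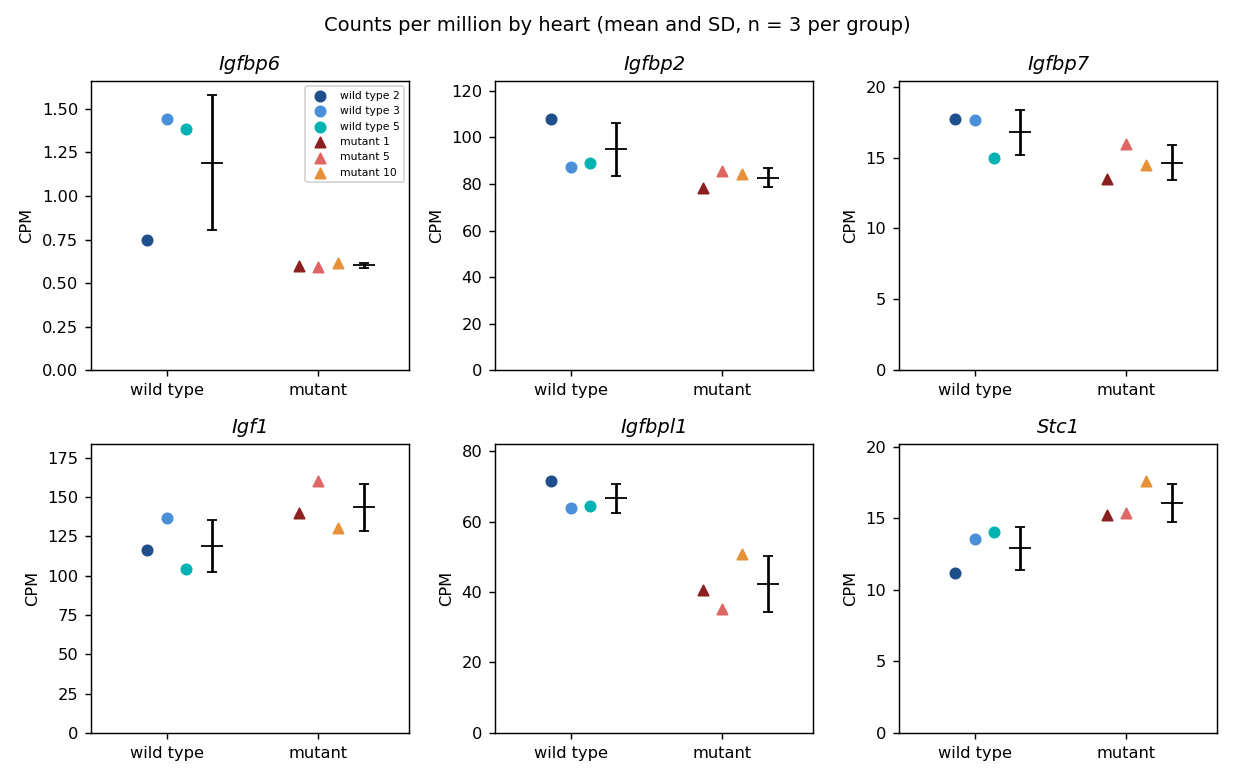
CPM in each heart for 4 members and for the related genes Igfbpl1 and Stc1, with the mean and SD of each group (n = 3) in black. The mutant hearts lie below all wild type hearts in Igfbp6, Igfbp2 and Igfbpl1 and above them in Stc1, and the groups overlap in Igfbp7 and Igf1.

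Beyond the members, 45 other genes of the pathway were listed in 6 groups, of which 39 were tested. None passed edgeR's test after adjustment, 1 was higher and 1 lower at an unadjusted p under 0.05 (3.14% and 2.59% of all genes), and DESeq2 called 1. Fold changes were above 0 in 28 and below 0 in 11, with a median of 0.05 on the log2 scale, against 49.8% above 0 over all genes tested. This split was not recounted without wild type replicate 5, a heart on which the split of the members depended.

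The gene that DESeq2 called was Igfbpl1, a secreted protein that resembles the binding proteins. It is also in the table of genes that the study drew from the same hearts, and is not independent evidence. It was at 71.4, 63.9 and 64.4 CPM in wild type and 40.5, 35.3 and 50.8 CPM in mutant hearts, with no overlap. Igfbpl1 differed by −0.66 on the log2 scale (SE 0.14; adjusted p = 0.363 in edgeR's quasi-likelihood fit, adjusted by Benjamini-Hochberg, and 0.0134 from DESeq2). Stc1, whose product stanniocalcin 1 inhibits the protease PAPP-A, was at 11.2, 13.53 and 14.0 CPM in wild type and 15.2, 15.4 and 17.6 CPM in mutant hearts, also without overlap (log2 fold change 0.32, adjusted p = 0.847 in the same edgeR fit). Htra1, a protease that cuts binding proteins, had a log2 fold change of −0.09, which was 0.02 when wild type replicate 3 was left out, and −0.19 without mutant replicate 1.

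All 6 tested adaptors had values above 0, with Irs1, which links the receptors to PI3K, at 0.40 (adjusted p = 0.895 in edgeR's quasi-likelihood fit, adjusted by Benjamini-Hochberg) and the imprinted inhibitor Grb10 at 0.22, which was 0.03 without wild type replicate 5. The sign of Grb14, named after its value was seen, turned to −0.03 without wild type replicate 3. The longest transcript of Irs1 has 9144 bp, and its log2 fold change was 0.21 without wild type replicate 5. The insulin receptor Insr was at 0.21, and at 0.02 without wild type replicate 5. The insulin genes had 0 to 3 counts in each heart, where the exact 95% Poisson limit of a count of 0 is 3.69. In the PI3K, AKT, mTOR and FOXO list 13 genes lay above 0 and 4 below, with Pdpk1, the kinase that activates AKT, at 0.22 (0.11 without wild type replicate 5) and Akt1, the most abundant of the list, at 0.05 (−0.01 without mutant replicate 10). Igf2bp1, which binds Igf2 mRNA, was at −0.19, with −0.40 when wild type replicate 5 was left out, and −0.01 without replicate 2 of that group. Its relative Igf2bp2 was at −0.01, with −0.19 and 0.09 without the same hearts. H19 was at 6871, 5818 and 5307 CPM in wild type and 6680, 7007 and 7129 CPM in mutant hearts, with a log2 fold change of 0.21 (0.13 when wild type replicate 5 was left out, and 0.32 without replicate 2 of that group).

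**Figure D5:**
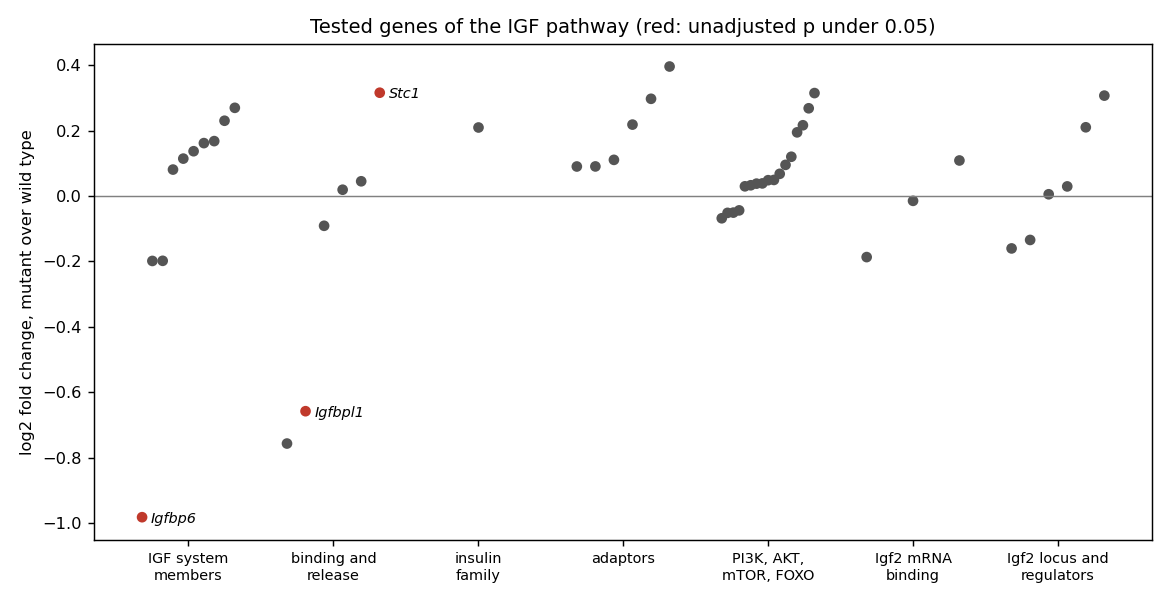
Log2 fold change, mutant over wild type, of the 10 members and of the 39 tested genes in 6 other lists of the pathway, with genes at an unadjusted p under 0.05 in red. Igfbp6 (−0.98) and Igfbpl1 (−0.66) lie below 0 and Stc1 (0.32) above it, and all 6 tested adaptors lie above 0.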

How the data were processed

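Whole hearts were sequenced by the authors with 1 heart per library. Per the study's methods, reads were trimmed, mapped by STAR to mm10 and summed per gene by featureCounts, while the submitters' processing notes name HTSeq and DESeq2. The authors deposited the raw counts per gene and FPKM values, whose making is not given in the sources used here. Each deposited FPKM equals the count over 1 length per gene and the total of the heart, to within a relative 6.1e-14.

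Counts were compared with edgeR 4.0.16 in R 4.3.3 (quasi-likelihood test, TMM, filterByExpr with a minimum count of 10 and a total of 15, two-sided, no covariates), fitted on the whole table with Benjamini-Hochberg adjustment over the 17473 genes tested and a threshold of 0.05. CPM values use the TMM-scaled library size. Well-measured genes are those with a mean log2 CPM of 4 or more. Nothing in the labels says whether the embryos shared a litter or the libraries a batch. Alternatives were DESeq2 1.42.0, voom and trend fits of limma 3.58.1 (log2 of FPKM plus 1 or 0.1), other size factors, no filter, an adjusted p under 0.1, corrections of each heart's trend with the longest transcript's length and GC content (local regression, span 0.5), and each heart left out. The scripts were tested on simulated data. The ratios of 1 member to another were compared by exact permutation tests.

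Positions are from GENCODE M21 (GRCm38), promoters from RefSeq (GRCm38.p6). Named were all members, in each pathway list the gene with the smallest p and that with the highest mean FPKM, pathway genes with an unadjusted p under 0.05, genes overlapping a member's exons, Wt1, and the 3 genes nearest to a member in pattern. The members and lists were chosen with earlier results of these data known. H19's rank by pattern was added after its value was seen, as were the levels per longest transcript.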

Additional observations from a re-analysis of the deposited data

How the results depend on the processing

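Over 19 settings, the number of members past the adjusted threshold was 0 in each, and of the alternative fold changes of members 172 kept their direction and 8 did not. No paired analysis was made, because the labels do not tie any mutant heart to a wild type heart. Without wild type replicate 5 the log2 fold change of Igf2r was −0.14 (−0.14 with DESeq2, −0.0596 with the length and GC correction) and that of Igfbp5 −0.11 (−0.11 with DESeq2, −0.0709 with that correction), while that of Igf1r was −0.0019 with DESeq2. With each heart left out the values ranged from −0.14 to 0.44 in Igf2r and from −0.11 to 0.20 in Igfbp5, the latter with −0.02 without mutant replicate 5. The number of members with an unadjusted p under 0.05 ranged from 0 to 2 with each heart left out (0 without mutant replicate 1 or mutant replicate 5, 2 without wild type replicate 5), and was 2 when the length behind the FPKM was used for the correction and 3 with DESeq2 without wild type replicate 5. Over all genes, the number past the threshold was 0 in the reported fit, 133 with DESeq2, 34 with no filter, 14 with the length correction, 15 with length and GC, 13 with the length behind the FPKM, 6 at an adjusted p under 0.1, and 0 to 44 with each heart left out (44 without wild type replicate 5). Without that heart it was 45 with the length and GC correction and 447 with DESeq2. Genes at an unadjusted p under 0.05 also became more frequent over the whole table once that heart was dropped. Their number went from 1002 to 2179 in edgeR's fit and from 1156 to 2265 in that of DESeq2. The higher member counts in those fits thus came with a general rise and are not particular to the members. Of the other pathway genes, DESeq2 called 1 (Igfbpl1), where it called 133 of all genes (0.69%). Without wild type replicate 5 it called 3 (Igfbpl1, Igf2bp1 and Hmga2), where it called 447 of all genes, a share not computed here. In edgeR's fit Hmga2 had a log2 fold change of −0.13 with all hearts and 0.02 without wild type replicate 3. The fits that joined DESeq2 or the length and GC correction with the loss of wild type replicate 5, and the length behind the FPKM, were added after seeing the data. The causes of these shifts were not tested. With 3 hearts per group, an adjusted p over the threshold does not show that a member did not change, and Igfbp6 was limited by counts of 31 to 83.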

Other observations

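Several genes of the binding, insulin and adaptor lists had too few counts to be tested. Igfbp1, a liver product that neighbours Igfbp3, had 89 counts in wild type replicate 3 and 0 to 6 in the other 5 hearts. That is the heart whose hepatocyte markers summed to 795 CPM. Igfals, which joins IGFs and Igfbp3 in a circulating complex, had 0 to 3 counts per heart. Insrr had 24 counts in wild type replicate 5 and 6 to 10 in the others, and Irs4 had 2 to 10 counts. Pappa2, a protease that cuts Igfbp3 and Igfbp5, passed the filter. Its counts were 113, 337 and 67 in the wild type hearts (replicates 2, 3 and 5) and 32, 168 and 88 in the mutants (replicates 1, 5 and 10), so the groups overlapped, and its log2 fold change of −0.76 had a standard error of 0.65. Pappa (0.04) and Stc2 (0.02) were near 0 on the log2 scale.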
